A study of Mus musculus with 10 samples.

Results

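The genes described here are 10 members of the hepatic acute phase response and of the metallothionein family. They are the serum amyloid A genes Saa1, Saa2 and Saa3, the orosomucoid genes Orm1 and Orm2, haptoglobin (Hp), serum amyloid P (Apcs), the metallothionein genes Mt1 and Mt2, and lipocalin 2 (Lcn2). They were taken by name from a table of 24062 genes, and earlier results of these data were known when they were chosen. All 10 were among the 12648 genes that passed the filter on low values.

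Messenger RNA was sequenced from mouse liver to ask what a Western diet, the hepatotoxin carbon tetrachloride (CCl4) and their combination do to the liver and its tumours. Each of 8 liver libraries pooled 4 mice, and the groups were normal diet with oil, normal diet with CCl4, Western diet with oil and Western diet with CCl4, each sampled at 12 and at 24 weeks. Oil is the vehicle of CCl4. Another 2 libraries came from tumours of single mice that had received the Western diet and CCl4 for 24 weeks. The sources used here do not give strain, genotype, sex, age or CCl4 dose. No combination had a repeat pool at the same time, so the pools of 12 and 24 weeks stood in as repeats. Adjusted p-values below therefore weigh a change against the spread between those pools after a shift with time common to all combinations is taken out, not against the spread between animals. The test also draws the spread of each gene towards that of other genes at a like level. Libraries held 23206229 to 30137802 reads. All 8 hepatocyte defining markers were above 0 in every library.

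Acute phase proteins are secreted by hepatocytes when cytokines such as interleukin 6 and interleukin 1 reach the liver, and act through STAT3, C/EBP and NF-kB factors at their promoters. Serum amyloid A travels on high density lipoprotein, orosomucoids carry small lipophilic molecules, haptoglobin captures free haemoglobin, serum amyloid P is a pentraxin, and lipocalin 2 binds the siderophores that bacteria use to take up iron. Metallothioneins are small cysteine-rich proteins that bind zinc and copper. Their genes respond to metals through the factor MTF1, and also to glucocorticoids, oxidants and inflammatory signals.

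Levels of the 10 genes spanned a wide range. Divided by transcript length, the mean of the normal-diet oil pools was 2694 normalised counts per kilobase for Hp (pools 2221 and 3168), where a normalised count is the deposited value, a read count times a scaling constant of its library, and 1252 for Orm1 (990 and 1515). On the same scale Saa1 stood at 305 (74.4 and 535), Saa2 at 132 (27.5 and 237) and Apcs at 117 (96.3 and 137). The ranges of Saa1, Saa2 and Apcs overlapped, so their order is not set by these pools. Mt1 had a mean of 50.7 per kilobase (39.4 and 62.0). Below it Orm2 (22.3), Mt2 (17.6) and Saa3 (16.5) overlapped in their pools, as did Mt2 (10.4 and 24.7) and Lcn2, the lowest at 9.15 (4.51 and 13.8). In the tumours Lcn2 stood at 1195 per kilobase, the second highest mean of the 10 after Hp at 5040. Values from here on are normalised counts not divided by length, and changes are log2 fold changes of value + 1 with the standard error (SE) of the limma fit.

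**Figure D1:**
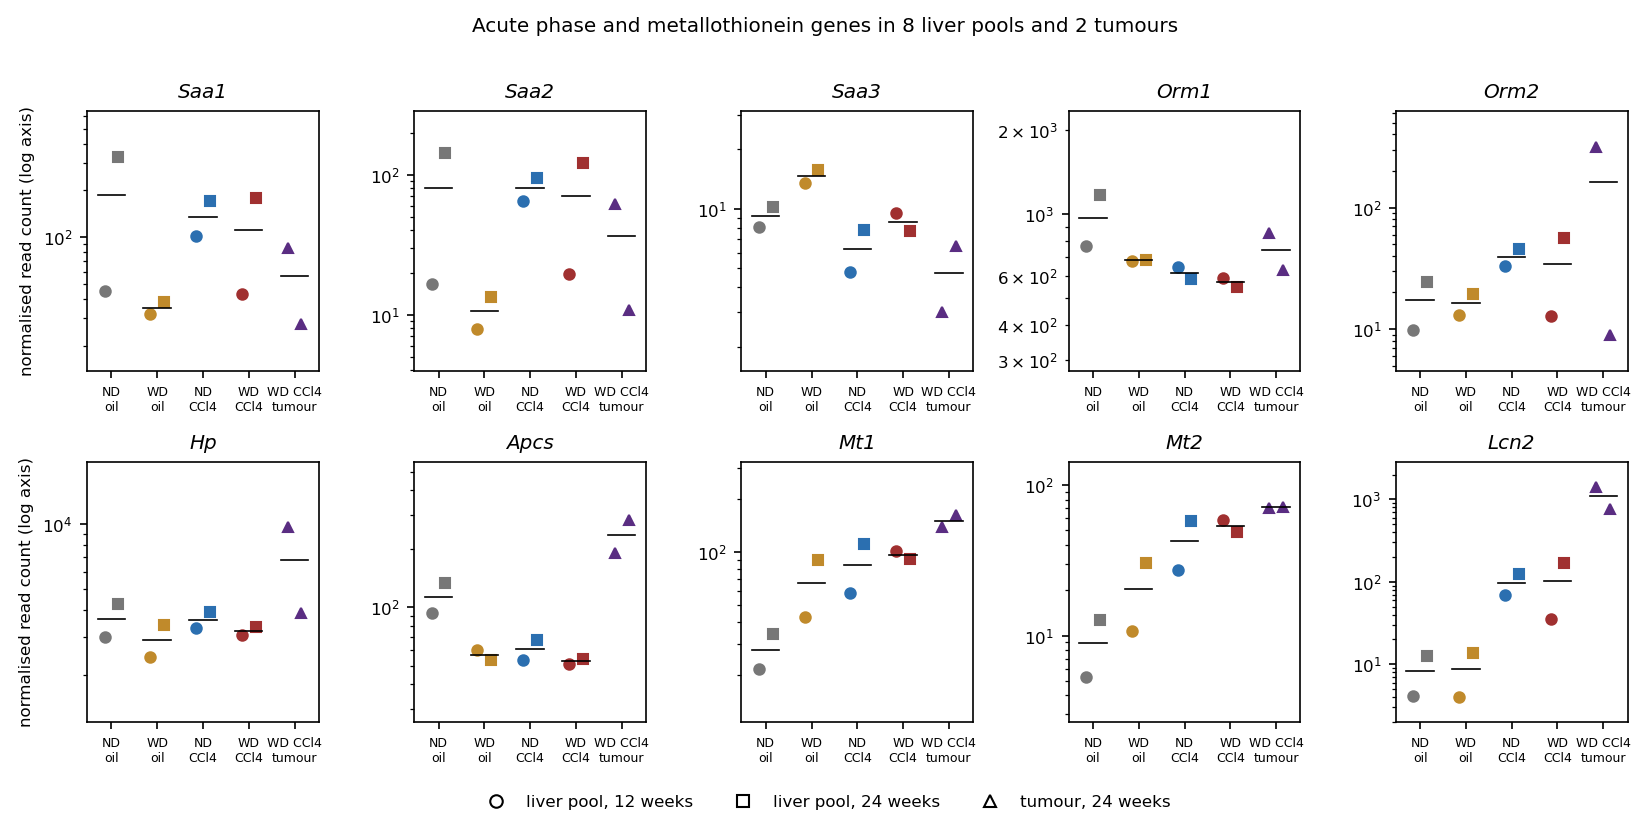
Normalised counts (log axis) of the 10 genes in each of the 8 liver pools and 2 tumours, with 1 point per library and a line at each group's mean. Lcn2 lies between 3.97 and 13.6 in the oil pools, between 35.6 and 168 in the CCl4 pools and at 757 and 1429 in the tumours, while Hp stays between 2427 and 4261 in all 8 liver pools.

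CCl4 on a normal diet raised Lcn2, Mt2, Mt1 and Orm2 and lowered Apcs and Orm1, which makes 4 of 10 members higher and 2 lower at a limma p adjusted over all tested genes (Benjamini-Hochberg) under 0.05, here termed called. Of all tested genes 26.0% were called in that comparison, 15.3% higher and 10.6% lower. The median change of the members was 0.38, beside 0.00 for all tested genes. With 6 of 10 called, the members changed in both directions. Leaving out the 24-week oil pool on normal diet reduced the members called to 3, which were Mt1, Mt2 and Lcn2, and the share of all tested genes called to 8.07%.

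The Western diet with oil, set against normal diet with oil, called 1 member, Apcs, which was lower, beside 1.99% of all tested genes called, 1.45% higher and 0.546% lower. An unadjusted p under 0.05 was found for 7 members there, and for 17.5% of all tested genes. Leaving out either of the Western-diet CCl4 pools, which enter that comparison only through the spread, raised the count to 4, with Mt1 and Mt2 higher and Saa2 and Apcs lower, beside 2.98% and 3.08% of all tested genes. The call of Apcs was lost without the 24-week oil pool on normal diet and without either Western-diet oil pool. In these settings fewer of all tested genes were called as well.

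CCl4 on the Western diet raised 3 members, Lcn2, Saa2 and Mt2, and lowered none at the threshold, beside 6.82% of all tested genes called, 4.29% higher and 2.52% lower. The median change of the members was 0.67, beside -0.02 for all tested genes. Leaving out either Western-diet oil pool left Lcn2 alone, and fewer of all tested genes were called as well. Leaving out the 12-week pool of Western diet with CCl4 added calls of Orm2 (1.37) and Saa3 (-1.02), at a like share of all tested genes called.

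Both exposures together, set against normal diet with oil, raised Lcn2, Mt2 and Mt1 and lowered Apcs and Orm1. That is 5 of 10 members, beside 25.9% of all tested genes called, 15.7% higher and 10.2% lower. This comparison and that of CCl4 on normal diet share their oil pools, so their lists are not independent of each other.

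Adding the Western diet to CCl4 called 0 of 10 members by limma, beside 0.0474% of all tested genes called, 0.00791% higher and 0.0395% lower. No member had an unadjusted p under 0.05 there (a count of 0, beside 7.03% of all tested genes). EdgeR and DESeq2 on the recovered reads also called 0 members, beside 0.0395% and 0.530% of all tested genes. The intervals of these differences remain wide. For Lcn2 the 95% interval ran from -0.86 to 0.32 and for Mt2 from -0.33 to 1.16. Without the 24-week pool of both exposures the change of Mt2 was 1.14, against 0.42 with all pools.

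**Figure D2:**
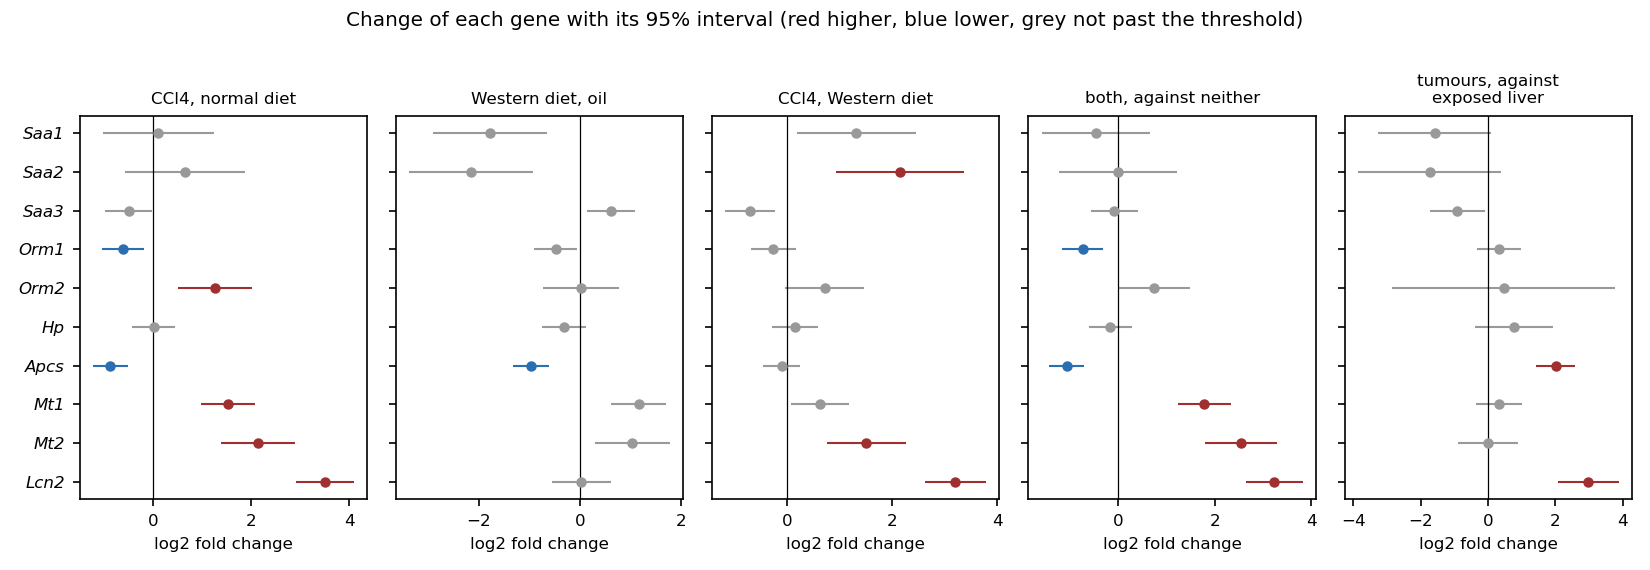
Log2 fold change of value + 1 for each of the 10 genes in 4 liver comparisons and in the tumours, with bars of the 95% interval of the limma fit, red where a gene was called higher, blue where called lower and grey otherwise. Lcn2 changes by 3.50, 3.20 and 3.23 in the CCl4 comparisons and by 0.03 with the Western diet alone, while Hp is grey in all 5 panels.

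Saa1 and Saa2, which encode the circulating acute phase serum amyloid A proteins, had the widest standard errors of the 10 in the liver fit, 0.50 and 0.54. Saa1 lies on chromosome 7 at 46740497 to 46742980 on the minus strand (ENSMUSG00000074115.5) and Saa2 next to it at 46751790 to 46754313 on the plus strand (ENSMUSG00000057465.5), both in GRCm38. They are near copies: 14.8% of the 50-base windows of the Saa1 transcript occur in Saa2 or Saa3, and 13.3% of those of Saa2 occur in Saa1, so the split of reads between them is uncertain. The promoter windows of this pair are shown because the genes moved together across the pools. They are from RefSeq in the build GRCm38.p6, run 5′ to 3′ from 250 bases before the start to 50 after it, and lie at chr7:46742931-46743230 on the minus strand (Saa1) and chr7:46751583-46751882 on the plus strand (Saa2). Capitals mark matches to TTNNGNAA, a C/EBP core searched on both strands.
Saa1: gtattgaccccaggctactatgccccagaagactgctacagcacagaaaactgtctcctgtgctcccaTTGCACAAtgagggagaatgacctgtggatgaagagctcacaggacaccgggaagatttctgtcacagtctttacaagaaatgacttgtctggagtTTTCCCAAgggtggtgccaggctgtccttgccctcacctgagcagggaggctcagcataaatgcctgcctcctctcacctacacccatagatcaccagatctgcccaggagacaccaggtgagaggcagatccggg
Saa2: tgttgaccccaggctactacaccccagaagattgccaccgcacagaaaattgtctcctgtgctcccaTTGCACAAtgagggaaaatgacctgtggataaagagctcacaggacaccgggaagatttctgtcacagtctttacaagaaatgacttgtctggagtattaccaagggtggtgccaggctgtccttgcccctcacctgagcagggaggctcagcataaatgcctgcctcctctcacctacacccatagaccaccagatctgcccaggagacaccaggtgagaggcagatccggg
The windows are identical at 287 of 299 aligned bases. Saa1 holds 2 matches to the C/EBP core and Saa2 holds 1. Of 32851 RefSeq promoters of this length, 40.7% hold at least 1, so a match is common. A RefSeq promoter entry was found for 8 of the 10 members, all but Orm1 and Hp. Among the others Saa3 holds 4 matches to the C/EBP core, Orm2 2, Mt2 and Lcn2 1 each, and Apcs and Mt1 0. The STAT palindrome TTCNNNGAA was found once, in Apcs, and in 8.3% of all promoters. The NF-kB consensus was found in 0 of the 8 windows and in 4.51% of all promoters.

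Saa1 was at 45.3 normalised counts at 12 weeks and 326 at 24 weeks on normal diet with oil, and at 32.0 and 38.0 on Western diet with oil. It was at 101 and 169.9 on normal diet with CCl4, and at 43.3 and 179 on Western diet with CCl4. The highest of the 8 pools was thus one without CCl4, the 24-week pool of normal diet with oil, and the groups with and without CCl4 overlapped on normal diet. On the Western diet both CCl4 pools were above both oil pools.

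For Saa1 the log2 change was 0.10 ± 0.50 (SE, adjusted p = 0.896 by limma) with CCl4 on normal diet, with a 95% interval from -1.03 to 1.23. With CCl4 on the Western diet it was 1.31 ± 0.50 (adjusted p = 0.149), and with the Western diet alone -1.78 ± 0.50 (adjusted p = 0.120). No liver comparison called Saa1.

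Saa2 had a like course. Its values were 16.6 and 144 on normal diet with oil and 7.90 and 13.4 on Western diet with oil. They were 64.5 and 95.4 on normal diet with CCl4, and 19.4 and 122 on Western diet with CCl4. The oil pools on the Western diet were the lowest pair, and the 24-week oil pool on normal diet was again the highest pool.

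Saa2 rose with CCl4 on the Western diet by 2.15 ± 0.54 (adjusted p = 0.0492), the single call in the family. That call sits at the threshold. It was lost in 11 of 17 other settings, among them edgeR (adjusted p = 0.0511) and DESeq2 (adjusted p = 0.0702) on recovered reads. It was also lost without the Western-diet oil pool at 12 weeks (2.83, adjusted p = 0.102) or 24 weeks (1.46, adjusted p = 0.481), and without the 24-week pool of Western diet with CCl4 (1.57, adjusted p = 0.233). With the Western diet alone the Saa2 change was -2.16 ± 0.54 (adjusted p = 0.0914).

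The balance of the pair was read from their ratio. There were 36.7 and 44.1 Saa2 counts per 100 Saa1 counts on normal diet with oil and 24.7 and 35.2 on Western diet with oil. The CCl4 pools had 63.9 and 56.2 on normal diet, and on Western diet they had 44.9 and 68.2. All 4 CCl4 pools were above all 4 oil pools in this ratio, which was not tested.

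Saa3, the family member made mainly outside hepatocytes in mice, did not follow the other members. It lies at 46711998 to 46715700 on chromosome 7, minus strand (ENSMUSG00000040026.8). Its values were 8.12 and 10.2 on normal diet with oil, 4.77 and 7.78 on normal diet with CCl4, 13.5 and 15.7 on Western diet with oil, and 9.52 and 7.67 on Western diet with CCl4. The Western-diet oil pools were highest and the pools with CCl4 were lower on each diet. The log2 change with CCl4 was -0.50 ± 0.21 (adjusted p = 0.111) on normal diet and -0.70 ± 0.21 (adjusted p = 0.0821) on Western diet, and neither passed the threshold. The second was called without the 12-week pool of Western diet with CCl4 (-1.02, adjusted p = 0.0326).

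Orm1 and Orm2 encode alpha-1-acid glycoproteins. They are neighbours on chromosome 4, plus strand, Orm1 at 63344560 to 63348163 (ENSMUSG00000039196.2) and Orm2 at 63362449 to 63365878 (ENSMUSG00000061540.3). Their transcripts share 20.4% (Orm1) and 22.7% (Orm2) of 50-base windows with other orosomucoid genes, so reads of the low member could in part belong to the high one.

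Orm1 was lower with CCl4. It was at 767 and 1174 on normal diet with oil and 682 and 685 on Western diet with oil, against 645 and 585 on normal diet with CCl4 and 590 and 548 on Western diet with CCl4. All 4 CCl4 pools were below all 4 oil pools, as were 11.9% of all tested genes. In either direction the CCl4 and oil pools did not overlap for 2 members, Orm1 and Lcn2, and for 25.6% of all tested genes. The 24-week pool on normal diet with oil was the highest.

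Orm1 fell by 0.63 ± 0.19 on the log2 scale (adjusted p = 0.0398) with CCl4 on normal diet and by 0.74 ± 0.19 (adjusted p = 0.0219) with both exposures. Without the 24-week oil pool on normal diet these changes were -0.28 (adjusted p = 0.294) and -0.39 (adjusted p = 0.157), so 1 library sets their size. Without the 12-week oil pool on normal diet the first was -0.97. Each call was lost without either Western-diet oil pool as well, with adjusted p-values of 0.0848 and 0.0845 for the first and 0.0540 and 0.0538 for the second. The first was lost too without either normal-diet CCl4 pool (adjusted p = 0.0787 and 0.281) and the second without the 24-week pool of both exposures (adjusted p = 0.116). Quantile normalisation gave -0.28 (adjusted p = 0.209) and -0.37 (adjusted p = 0.115).

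Orm2 moved the other way. It was at 9.89 and 24.6 on normal diet with oil, 33.3 and 45.6 on normal diet with CCl4, 13.2 and 19.5 on Western diet with oil, and 12.8 and 56.0 on Western diet with CCl4. The groups did not overlap on normal diet and overlapped on the Western diet, where the 12-week CCl4 pool lay at the level of its oil pool. Orm2 rose with CCl4 on normal diet by 1.26 ± 0.33 (adjusted p = 0.0252). The call was lost without the normal-diet oil pool at 12 weeks (1.15, adjusted p = 0.106) or 24 weeks (1.37, adjusted p = 0.116), and without the 12-week CCl4 pool on normal diet (0.84, adjusted p = 0.172). It was lost too with no filter, with all 10 libraries in 1 fit and without the duration term (adjusted p = 0.129, 0.611 and 0.148).

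On the Western diet the CCl4 change of Orm2 was 0.72 ± 0.33 (adjusted p = 0.224), and 1.37 (adjusted p = 0.0135) without the 12-week pool of Western diet with CCl4. There were 1.29 and 2.10 Orm2 counts per 100 Orm1 counts on normal diet with oil, and 5.16 and 7.80 on normal diet with CCl4. On the Western diet the oil pools had 1.93 and 2.85 and the CCl4 pools 2.16 and 10.2, so there the groups overlapped.

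**Figure D3:**
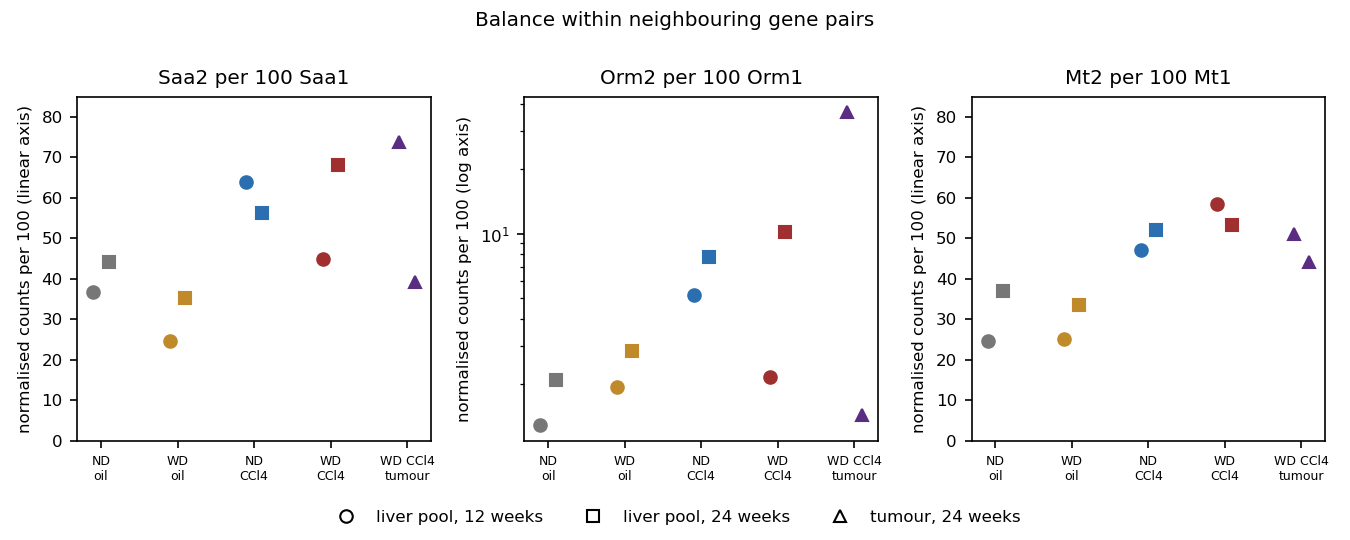
Counts of Saa2 per 100 Saa1, Orm2 per 100 Orm1 and Mt2 per 100 Mt1 in each library, with 1 point per library, on linear axes from 0 for Saa2 and Mt2 and on a log axis for Orm2. The CCl4 pools lie above the oil pools for Saa2 and Mt2, and tumour 1 has 36.6 Orm2 per 100 Orm1 against 1.43 in tumour 2.

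Hp, which encodes haptoglobin, was the highest member in every library and was called in none of the liver comparisons. It lies at 109575128 to 109579172 on chromosome 8, minus strand (ENSMUSG00000031722.10). Its values were 2987 and 4261 on normal diet with oil, 3306 and 3905 on normal diet with CCl4, 2427 and 3406 on Western diet with oil, and 3051 and 3321 on Western diet with CCl4. All of these groups overlapped. With CCl4 on normal diet the log2 change was 0.01 ± 0.19 (adjusted p = 0.974), with a 95% interval from -0.43 to 0.45. Quantile normalisation gave 0.56 (adjusted p = 0.0247) for that comparison, the setting of those tried in which Hp was called there.

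Apcs, which encodes the pentraxin serum amyloid P, was lower in every group than in normal diet with oil. It lies at 172893961 to 172895041 on chromosome 1, minus strand (ENSMUSG00000026542.6). Its values were 93.5 and 133 on normal diet with oil, against 53.3 and 68.0 on normal diet with CCl4, 59.9 and 53.7 on Western diet with oil, and 51.2 and 54.1 on Western diet with CCl4. Both pools of normal diet with oil were above the other 6. The share of all tested genes with this pattern was not counted.

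Apcs fell by 0.88 ± 0.16 on the log2 scale (adjusted p = 0.00559) with CCl4 on normal diet, by 0.96 ± 0.16 (adjusted p = 0.0208) with the Western diet alone, and by 1.07 ± 0.16 (adjusted p = 0.00199) with both. The last of these was past the threshold in all 17 alternative settings. Without the 24-week oil pool on normal diet the first was -0.67 (adjusted p = 0.0603) and the second -0.76 (adjusted p = 0.185). With no filter and with all 10 libraries in 1 fit the first was lost (adjusted p = 0.0513 and 0.0818), as was the second (adjusted p = 0.211 and 0.393). The second was also lost without the Western-diet oil pool at 12 weeks (-1.19, adjusted p = 0.108) or 24 weeks (-0.73, adjusted p = 0.276). CCl4 on the Western diet gave -0.11 ± 0.16 (adjusted p = 0.724, 95% interval -0.47 to 0.25). The test of the difference between the CCl4 changes on the 2 diets gave 0.77 ± 0.22 (unadjusted p = 0.00753, limma adjusted p = 0.365) and did not pass.

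Mt1 and Mt2, the metallothionein genes of hepatocytes, both rose with CCl4 on normal diet and with both exposures, and Mt2 also rose with CCl4 on Western diet. They are neighbours on chromosome 8, plus strand, Mt2 at 94172664 to 94173568 (ENSMUSG00000031762.7) and Mt1 at 94179082 to 94180327 (ENSMUSG00000031765.8), and their transcripts share no 50-base window with other genes of the annotation. Their RefSeq promoter windows in GRCm38.p6 are shown because metals act on these genes through a short promoter element. They run 5′ to 3′ over chr8:94178839-94179138 (Mt1) and chr8:94172368-94172667 (Mt2), both plus strand. Capitals mark matches on either strand to the core of that metal response element, TGCACNC or TGCGCNC.
Mt1: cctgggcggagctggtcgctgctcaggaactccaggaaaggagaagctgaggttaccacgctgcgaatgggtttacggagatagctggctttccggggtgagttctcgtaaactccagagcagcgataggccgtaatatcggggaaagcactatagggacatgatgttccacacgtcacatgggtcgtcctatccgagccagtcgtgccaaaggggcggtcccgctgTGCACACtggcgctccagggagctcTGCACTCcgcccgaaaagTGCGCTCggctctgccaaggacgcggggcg
Mt2: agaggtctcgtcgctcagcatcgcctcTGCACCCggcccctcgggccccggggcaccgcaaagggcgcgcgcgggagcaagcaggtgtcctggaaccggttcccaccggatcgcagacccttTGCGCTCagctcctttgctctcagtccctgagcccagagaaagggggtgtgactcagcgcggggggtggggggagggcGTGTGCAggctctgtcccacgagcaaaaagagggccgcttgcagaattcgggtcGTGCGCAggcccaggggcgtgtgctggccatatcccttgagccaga
Mt1 holds 3 matches and Mt2 holds 4. Of all RefSeq promoters of this length, 25.7% hold at least 1, 1.97% at least 3 and 0.517% at least 4. The other 6 members with a promoter entry, which were Saa1, Saa2, Saa3, Orm2, Apcs and Lcn2, hold 0. A match describes the letters in the window and is not evidence that the factor was bound there.

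Mt1 was at 21.6 and 34.0 normalised counts on normal diet with oil, 58.2 and 110.4 on normal diet with CCl4, 42.6 and 90.2 on Western diet with oil, and 100.2 and 91.3 on Western diet with CCl4. The pools of normal diet with oil were the lowest pair, and no other group overlapped them. How many of all tested genes do so was not counted. CCl4 raised Mt1 on normal diet by 1.53 ± 0.24 (adjusted p = 0.00330), and both exposures raised it by 1.78 ± 0.24 (adjusted p = 0.00137).

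On the Western diet the CCl4 change of Mt1 was 0.62 ± 0.24 (adjusted p = 0.162), and 1.12 (adjusted p = 0.0148) without the 24-week pool of both exposures. The Western diet alone gave 1.16 ± 0.24 (adjusted p = 0.0515), just short of the threshold. The interaction of diet and CCl4 was -0.91 ± 0.34 (unadjusted p = 0.0270, limma adjusted p = 0.501).

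Mt2 was at 5.32 and 12.6 on normal diet with oil, 27.4 and 57.5 on normal diet with CCl4, 10.7 and 30.1 on Western diet with oil, and 58.6 and 48.6 on Western diet with CCl4. On each diet both CCl4 pools were above both oil pools. Across diets the 24-week Western-diet oil pool, at 30.1, was above the 12-week CCl4 pool on normal diet. Mt2 rose by 2.13 ± 0.33 (adjusted p = 0.00286) with CCl4 on normal diet, by 1.51 ± 0.33 (adjusted p = 0.0325) with CCl4 on Western diet and by 2.55 ± 0.33 (adjusted p = 0.00106) with both exposures.

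The Western-diet call of Mt2 was lost without the oil pool of 12 weeks (1.12, adjusted p = 0.235) or 24 weeks (1.90, adjusted p = 0.198). Without the 12-week pool of both exposures it was 0.78 (adjusted p = 0.0435). It was lost as well with no filter, with all 10 libraries in 1 fit and without the duration term (adjusted p = 0.170, 0.242 and 0.134). The calls of Mt1 and Mt2 on normal diet and with both exposures were kept whichever library was left out, and those on normal diet were lost with no filter (adjusted p = 0.0527 and 0.0523). Mt2 counts per 100 Mt1 counts were 24.6 and 37.1 on normal diet with oil and 25.2 and 33.4 on Western diet with oil. In the CCl4 pools they were 47.1 and 52.1 on normal diet, and on Western diet 58.5 and 53.2, so all 4 CCl4 pools had relatively more Mt2 than all 4 oil pools. This ratio was not tested.

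**Figure D4:**
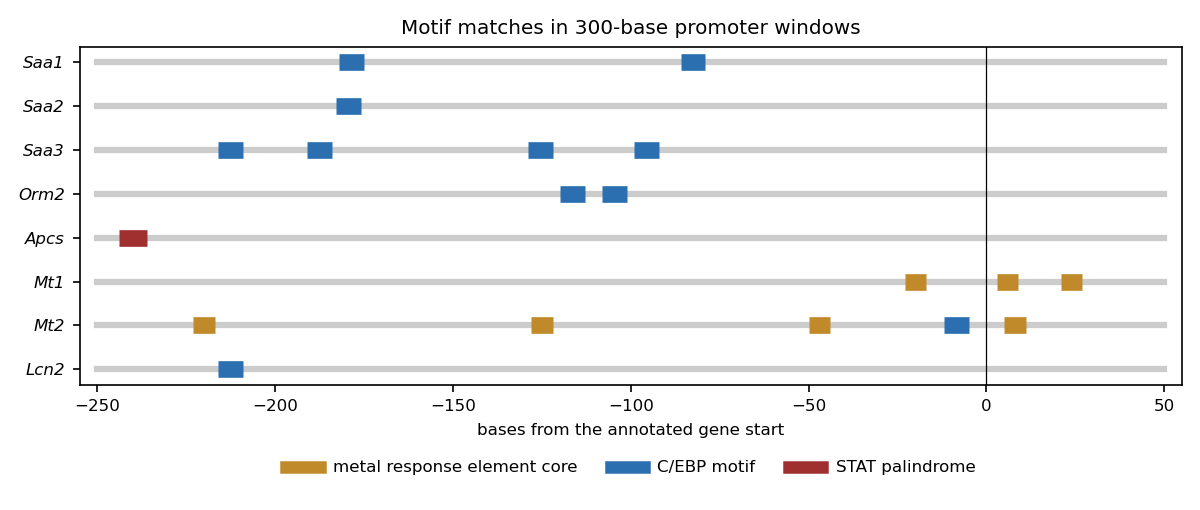
Positions of motif matches in the 300-base promoter windows of the 8 members with a RefSeq entry, with bases from the start annotated in RefSeq on the x axis, 1 row per gene and 1 colour per motif. For some genes, among them Mt2 and Lcn2, this start differs from that of the GENCODE positions in the text. Matches to the metal response core appear in Mt1 (3) and Mt2 (4) and in none of the other 6 windows.

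Lcn2 had the largest CCl4 change of the 10. It lies at 32384633 to 32388252 on chromosome 2, minus strand (ENSMUSG00000026822.14). Its values were 4.13 and 12.6 on normal diet with oil and 3.97 and 13.6 on Western diet with oil, against 69.6 and 126 on normal diet with CCl4 and 35.6 and 168 on Western diet with CCl4. The lowest CCl4 pool was above the highest oil pool, which 13.6% of all tested genes also showed in that direction.

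CCl4 raised Lcn2 on normal diet by 3.50 ± 0.26 (adjusted p = 0.00012), a fold of 11.3 on the value + 1 scale. It raised it on Western diet by 3.20 ± 0.26 (adjusted p = 0.00062), a fold of 9.21. Both exposures together raised it by 3.23 ± 0.26 (adjusted p = 0.00015). These calls were kept with each library left out in turn, and that on Western diet was lost with no filter (adjusted p = 0.0895), with all 10 libraries in 1 fit (adjusted p = 0.0506) and without the duration term (adjusted p = 0.0626). The Western diet alone gave 0.03 ± 0.26 (adjusted p = 0.966, 95% interval -0.56 to 0.62), and the interaction was -0.30 ± 0.37 (adjusted p = 0.830, 95% interval -1.13 to 0.53).

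Lcn2 is also made by neutrophils, macrophages and bile duct cells, so markers of these cells are given beside it. Of the 15 neutrophil markers measured, 9 were under 1 normalised count in every library. Their sum was 4.57 to 11.8 in the oil pools and 7.92 to 13.0 in the CCl4 pools. None of the 15 was at 0 in all libraries, and 1 of the 3 that could be tested, Csf3r (named after its value was seen), rose with CCl4 on normal diet, by 0.92 ± 0.22 (adjusted p = 0.0163). Of all tested genes 15.3% were higher in that comparison.

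The sum of 14 macrophage markers was 242 to 538 in the oil pools and 490 to 939 in the CCl4 pools, which overlap. With the Western diet alone 4 of 14 rose, beside 1.45% of all tested genes. With CCl4 10 of 14 rose on normal diet and 7 of 14 on Western diet, beside 15.3% and 4.29% of all tested genes. The sum of 10 bile duct markers was 66.0 to 105 in the oil pools and 155 to 628 in the CCl4 pools. Of these markers 4 of 10 rose with CCl4 on normal diet and 1 of 10 on Western diet, beside the same shares of all tested genes. Spp1, or osteopontin, made up most of the bile duct sum, with 37.3 to 68.9 in the oil pools and 121 to 524 in the CCl4 pools. The other 9 summed to 28.7 to 40.6 in the oil pools and 34.5 to 104 in the CCl4 pools, which overlap. The part of these cells in the Lcn2 change was not tested. In such bulk tissue, more cells of a type and more RNA per cell cannot be told apart.

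The comparison of 24 with 12 weeks, over the 4 combinations, called 0 of 10 members and 0.00% of all tested genes by limma. An unadjusted p under 0.05 was found for 7 members and for 11.7% of all tested genes. EdgeR called 0 members, beside 0.00791% of all tested genes, and DESeq2 called 2, Mt1 and Lcn2, beside 0.712%. Saa1, Saa2, Orm2, Hp and Lcn2 were higher at 24 weeks in 4 of 4 combinations, which is 5 of 10 members, beside 10.1% of all tested genes. The changes were 1.51 ± 0.18 for Lcn2 (adjusted p = 0.187), 1.72 ± 0.38 for Saa2, 1.46 ± 0.35 for Saa1 and 1.07 ± 0.23 for Orm2 (adjusted p = 0.334 for each of these 3). Orm1 was higher in 2 of 4, with a change of 0.09 ± 0.13. Leaving out either pool of Western diet with CCl4 gave a change of 1.19 for Mt2, against 0.82 with all pools. The median over the members was 0.72, beside -0.00 for all tested genes.

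The interaction of diet and CCl4 also called 0 of 10 members by limma, beside 0.103% of all tested genes called, 0.0553% higher and 0.0474% lower. Only Apcs and Mt1, given above, had an unadjusted p under 0.05 (2 of 10, beside 8.94% of all tested genes). EdgeR and DESeq2 each called 0 members, beside 0.0712% and 1.04% of all tested genes.

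The 2 tumours were compared with the pools of Western diet and CCl4 in a fit of all 10 libraries. Apcs and Lcn2 were higher in the tumours and 0 members were lower, beside 0.972% of all tested genes called, 0.466% higher and 0.506% lower. Each tumour came from 1 mouse and each pool from 4, so the spread here also holds the difference between single tumours.

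Lcn2 was at 1429 in tumour 1 and 757 in tumour 2, against 35.6 and 168 in the pools. Both tumours were above every liver pool. Of all tested genes 15.9% had both tumours above all 4 CCl4 pools. The change was 2.97 ± 0.39 (adjusted p = 0.0209). Against the 24-week pool alone, tumour 1 was 8.51 times and tumour 2 was 4.51 times as high, with no replicate check.

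Apcs was at 190 and 281 in the tumours, against 51.2 and 54.1 in the pools of the same exposure and at most 133 in the pools of normal diet with oil. The change was 2.02 ± 0.25 (adjusted p = 0.0209), so Apcs, which was lower in exposed liver than on normal diet with oil, was above both in the tumours. The calls of Apcs and Lcn2 were lost when any 1 of the 8 liver pools was left out, with adjusted p-values from 0.0693 to 0.224 for Apcs and from 0.0717 to 0.143 for Lcn2, and with only the tumours and the pools of both exposures (adjusted p = 0.211 and 0.315), while with a liver pool left out their changes stayed between 1.92 and 2.07 for Apcs and between 2.62 and 3.56 for Lcn2.

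Most other acute phase members differed between the tumours. Orm2 was at 314 in tumour 1 and 9.01 in tumour 2, a ratio of 34.8, and the 24-week pool at 56.0 lay between them. Hp was at 9685 and 3872, against 3051 and 3321 in the pools. Saa2 was at 62.4 and 10.8, and Saa1 at 84.6 and 27.4, both below the 24-week pool (122 and 179) in each tumour. The 12-week pool, at 19.4 for Saa2 and 43.3 for Saa1, lay between the tumours. Saa3 was at 3.01 and 6.44, below both pools. Orm1, at 858 and 629, was above both pools.

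For these genes the fit gave Orm2 0.47 ± 1.42 (adjusted p = 0.904), Hp 0.77 ± 0.50 (adjusted p = 0.490), Saa1 -1.58 ± 0.72 (adjusted p = 0.329), Saa2 -1.74 ± 0.91 (adjusted p = 0.395), Saa3 -0.91 ± 0.35 (adjusted p = 0.245) and Orm1 0.32 ± 0.28 (adjusted p = 0.623). Which tumour is in the fit sets the sign for Orm2: it was 2.96 without tumour 2 and -2.02 without tumour 1. Without tumour 1, the members called were Apcs and Lcn2, higher, and Saa1 (-2.38), Saa2 (-2.95) and Orm2, lower. Without tumour 2 they were Orm2, Hp (1.43), Apcs and Lcn2, higher, and Saa3 (-1.35), lower. With an arm of 1 tumour, 18.9% (without tumour 1) and 17.9% (without tumour 2) of all tested genes were called, so these counts are not on the scale of the comparison with both.

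The metallothioneins were alike in both tumours, with Mt1 at 138 and 162 and Mt2 at 70.6 and 71.3. All of these values were above all 4 CCl4 pools, in which Mt1 reached 110.4 and Mt2 58.6. The fitted changes were 0.33 ± 0.29 (adjusted p = 0.632) for Mt1 and -0.01 ± 0.38 (adjusted p = 0.995, 95% interval -0.90 to 0.88) for Mt2, in a fit that carries a term for duration. Apcs, Mt1, Mt2 and Lcn2, which is 4 of 10 members, did not overlap the CCl4 pools, and all 4 were higher. Of all tested genes 30.5% did not overlap, 15.9% higher and 14.6% lower.

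**Figure D5:**
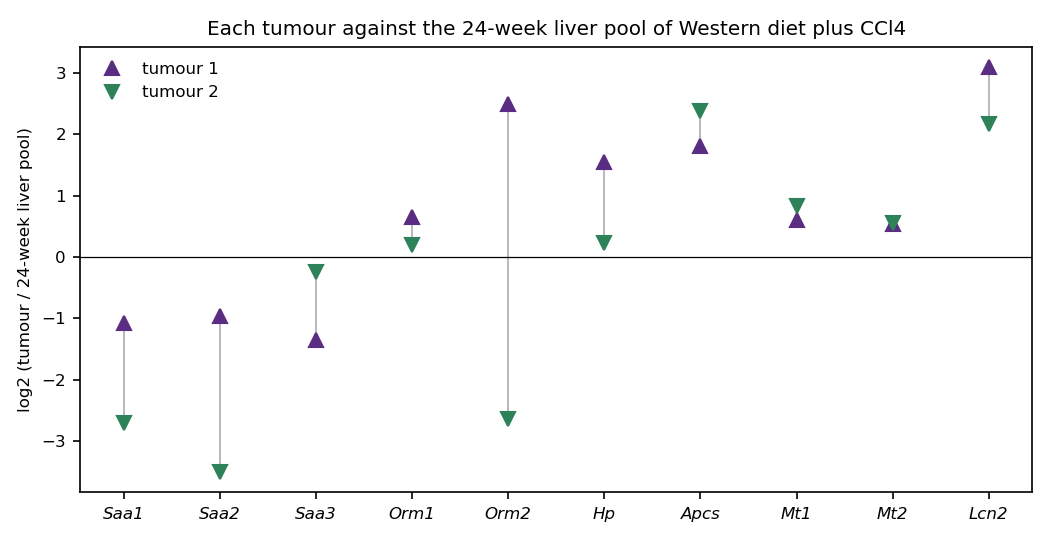
Log2 ratio of each tumour to the 24-week pool of Western diet with CCl4 for the 10 genes, with 1 point per tumour joined by a line and 0 for equal levels. Lcn2 and Apcs lie above 0 in both tumours, Saa1, Saa2 and Saa3 lie below 0 in both, and Orm2 is 5.60 times the pool in tumour 1 and 0.161 times in tumour 2.

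No tested macrophage, bile duct or neutrophil marker was called higher in the tumours by the same test. By limma 0 of 14 macrophage markers rose and 1 fell (Gpnmb), with a sum of 408 to 511 and a median change of -0.89. Of 10 bile duct markers 0 were called, with a sum of 417 to 868, of which Spp1 was 357 to 772 and the other 9 were 59.9 to 95.3, and a median change of -1.19. An unadjusted p under 0.05 was found for 6 macrophage and 6 bile duct markers, edgeR called 1 and 0, all lower, and DESeq2 called 4 and 4, all lower. Of all tested genes 16.7% had an unadjusted p under 0.05 by limma. The shares called by limma, edgeR and DESeq2 were 0.972%, 0.672% and 5.89%. Neutrophil markers summed to 12.4 to 17.0 in the tumours, beside 7.92 to 13.0 in the CCl4 pools. Only 3 of the 15 could be tested, with a median change of 0.32. Of these 3, 0 were called by limma, edgeR or DESeq2 or had an unadjusted p under 0.05. The part of these cells in the tumour values of Lcn2 and Apcs was not tested.

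Genes that are coinduced with the members in an acute phase response did not move as a block with CCl4. Among 25 tested other acute phase genes that rise in inflammation, 5 were higher and 10 lower with CCl4 on normal diet, where 15.3% of all tested genes were higher and 10.6% lower, with a median of -0.42 beside 0.00 for all tested genes. Hamp, the iron hormone hepcidin, fell by 1.28 ± 0.20, the fibrinogen chains Fgb and Fgg by 1.19 ± 0.19 and 1.18 ± 0.19. The sum of this list was 37313 to 42944 in the oil pools and 26673 to 30615 in the CCl4 pools. With both exposures 6 were higher and 11 lower, beside 15.7% and 10.2% of all tested genes.

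The 11 negative acute phase genes, which fall in inflammation, had a median of -0.65 with CCl4 on normal diet. Of these 0 were higher and 4 lower by limma, beside 15.3% and 10.6% of all tested genes. The high density lipoprotein genes Apom (-1.78 ± 0.23) and Apoa1 (-0.72 ± 0.22) and the fetuin Fetub (-1.06 ± 0.15) were among these 4. With CCl4 on normal diet edgeR called 6 of the 11 lower and DESeq2 9. These tools called 25.8% and 26.7% of all tested genes there, in either direction. With the joint exposure limma called 1 higher and 3 lower, beside 15.7% and 10.2% of all tested genes. The 8 hepatocyte defining markers had a median of -0.64 with CCl4 on normal diet, with 1 called by limma (Serpina1a, -1.33 ± 0.20). EdgeR called 5 of these 8 lower there and DESeq2 7. Their sum was 113824 to 144991 in the oil pools and 73193 to 110438 in the CCl4 pools. Alb made up most of this sum, with 85283 to 114851 in the oil pools and 54802 to 84121 in the CCl4 pools. Alb and Ttr are in both this list and that of the negative acute phase genes, so the lists are not independent.

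In the cytokine and STAT3 or NF-kB signalling list, 7 of 25 tested genes were higher and 2 lower with CCl4 on normal diet, beside the 15.3% and 10.6% of all tested genes. Cebpb, a C/EBP factor that acts at acute phase promoters, rose by 0.55 ± 0.15. The receptor chains Lifr and Il1rap, which receive leukaemia inhibitory factor and interleukin 1, fell by 1.55 ± 0.17 and 0.98 ± 0.16. Among 15 receptors and clearance partners of the members, 5 rose and 2 fell in that comparison, with Fcgr3, an immunoglobulin receptor, at 1.41 ± 0.26, haem oxygenase 1 (Hmox1), which breaks down haem, at 0.81 ± 0.13, and Asgr2, part of the asialoglycoprotein receptor, at -0.68 ± 0.13.

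Other metal genes were counted beside Mt1 and Mt2. Of 16 tested zinc, copper and metal response genes 1 was higher and 4 were lower with CCl4 on normal diet, again beside 15.3% and 10.6% of all tested genes, with a median of 0.05. Slc30a10, a manganese exporter, fell by 2.01 ± 0.13 (adjusted p = 7.07e-05), and Gclc, of glutathione synthesis, by 0.55 ± 0.16. Mtf1, the metal response factor, gave 0.04 ± 0.13 (adjusted p = 0.824), and Slc30a1, a zinc exporter whose gene MTF1 also drives, gave 0.03 ± 0.11 (adjusted p = 0.858). These last genes were named after their values were seen. The part of metals or MTF1 in the metallothionein changes was not tested.

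Of 14 glucocorticoid response genes 1 rose with CCl4 on normal diet, the clock gene Per1 (1.38 ± 0.16), beside 15.3% of all tested genes. With both exposures 5 rose, beside 15.7% of all tested genes. Among these 5 were the chaperone Fkbp5 (1.65), Per1 (1.53) and the cell cycle inhibitor Cdkn1a (1.51). The part of glucocorticoid signalling in the metallothionein changes was not tested.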

How the data were processed

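RNA came from frozen liver (RNeasy kit) and was made into poly-A selected TruSeq libraries, per the labels' protocols. The submitters' processing notes name STAR and mm10. The sources used here do not give the counter, annotation, scaling method or versions. The authors deposited a normalised signal per gene, in which 100% of values were whole reads, within 0.01 reads, times 1 constant per library (scaling factors 0.847 to 1.153), so reads could be recovered. Up to 3 reads are allowed by a listed 0, counting error only.

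The filter was a value of 1 or more in 2 or more libraries. Values were tested as log2(value + 1) with limma 3.58.1 (trend, two-sided). The model had a mean for each diet and treatment and a duration term, leaving 3 residual degrees of freedom. The tumours were fitted with all 10 libraries, leaving 4. Adjustment was by Benjamini-Hochberg over 12648 genes, at a threshold of 0.05. Pools of 1 duration are paired by that label, so duration is the block. Tests were checked on simulated data. The alternatives were another pseudocount, other filters and normalisations, no duration term, other sets of libraries, each library left out, edgeR 4.0.16, and DESeq2 1.42.0, both on recovered reads.

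Members and gene lists were chosen with earlier results of these data known. All 10 members are described. From each list up to 3 called genes were named by size of change, if their mean reached the median over tested genes, or, where none was called, up to 2 with the highest mean. Of 181 list entries 179 matched by symbol, 1 by an older symbol, and Ly6g did not. Positions are from GENCODE on GRCm38, and lengths are of principal transcripts.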

Additional observations from a re-analysis of the deposited data

How the results depend on the processing

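Of 17 called member results, 5 were past the threshold in every setting tried (Apcs, Mt1, Mt2 and Lcn2 with both exposures, and Lcn2 with CCl4 on normal diet) and 8 whichever library was left out. Of their 293 values under alternatives 224 were past the threshold, 69 were not and 0 were reversed. Of 1077 values of the 63 uncalled results 23 passed in the same direction and 1 in the other, Orm2 in the tumours, which ran from -2.02 to 2.96 with each library left out. Another 50 stayed uncalled with the sign changed.

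With no filter, CCl4 on normal diet called 1 member (Lcn2), the Western diet with oil 0 and CCl4 on Western diet 0. The shares of all tested genes called were then 7.68%, 0.00% and 0.0170%. With all 10 libraries in 1 fit these counts were 3, 0 and 0, beside 3.46%, 0.0316% and 0.0474% of all tested genes. For the Western diet with oil a pseudocount of 0.1 gave 2 (Mt1 and Apcs) and DESeq2 gave 2, beside 2.57% and 4.51%. For duration DESeq2 gave 2, beside 0.712%. Only the pools of both exposures and the tumours in the fit gave 0 for the tumours, beside 0.00%. Without the replicate block (no duration term) CCl4 on Western diet called 0 members, CCl4 on normal diet 4 and the Western diet with oil 1. The shares of all tested genes called were then 1.60%, 21.5% and 0.957%. Both exposures called 5 and the tumours 2, beside 21.9% and 3.07% of all tested genes. The Western diet with CCl4 and the interaction called 0, beside 0.0474% and 0.0870%. With each library left out in turn, members called ran from 3 to 6 for CCl4 on normal diet, 0 to 4 for the Western diet with oil, 4 to 6 for both exposures, 1 to 5 for CCl4 on Western diet, 0 to 1 for the Western diet with CCl4, 0 to 1 for duration and 0 to 5 for the tumours. The share of all tested genes called moved between these settings as well, so these counts cannot be read as a trait of the members alone. The cause of the differences was not tested. A lone pool left in a combination was assumed to vary like the others.

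Saa3 rested on 77 to 423 reads per library, and Lcn2 on 93 reads in each 12-week oil pool. There were 3 residual degrees of freedom and no repeat pools, so a p that missed the threshold does not show that levels were equal.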

Other observations

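Likeness of pattern was described by Pearson's r of log2(value + 1) over the 8 liver pools, among 6324 tested genes with a mean at or above the median. The points share their diet and treatment groups, so r is given as a description with no p. Lcn2 was most like Nagk (0.977), Nt5c2 (0.976), Alpl (0.976), Tnip1 (0.975) and Pdlim1 (0.975). Mt1 was most like Ets1 (0.981) and Itgal (0.979), and Mt2 most like Ifi30 (0.979) and Msr1 (0.978), a macrophage scavenger receptor. Orm1 was most like Serpina10 (0.984), and Apcs most like Slmo2 (0.969) and the hepatocyte-secreted Fgl1 (0.964). Among the members themselves r was 0.977 for Saa1 with Saa2, 0.969 for Mt1 with Mt2 and -0.28 for Orm1 with Orm2.

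Il1rn, the interleukin 1 receptor antagonist, which is an acute phase gene below the expression limit for named genes and was picked after its values were seen, had a course like that of Lcn2. It was at 1.77 and 1.60 on normal diet with oil, 11.9 and 16.9 on normal diet with CCl4, 2.39 and 4.63 on Western diet with oil, and 10.4 and 17.8 on Western diet with CCl4, and at 70.8 and 61.5 in the tumours. It rose in the tumours by 1.97 ± 0.25 by limma, the 1 call of that test among 25 other acute phase genes there. Of all tested genes 0.466% were called higher in that comparison. EdgeR called 1 of the 25 higher and DESeq2 5, beside 0.672% and 5.89% of all tested genes in either direction. Whether the Il1rn call held with a library left out was not tested.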
